A study of Mus musculus with 2 samples.

Results

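Proliferating mesenchymal cells of the embryonic mouse pancreas are described here from single-cell transcript counts. They were chosen by measured values. A barcode was kept with at least 500 detected genes and at most 10% mitochondrial UMIs. A UMI, or unique molecular identifier, stands for 1 captured transcript. It needed at least 20 UMIs of the fibrillar collagen genes Col1a1, Col1a2 and Col3a1 in sum. It could hold at most 2 UMIs of the pericyte genes Rgs5, Kcnj8, Abcc9 and Higd1b and at most 1 of the mesothelial genes Upk3b and Lrrn4. It could hold 0 of the endothelial genes Pecam1 and Cdh5 and at most 1 of the myeloid genes Tyrobp and Fcer1g. These cells are called mesenchymal-gated. Those with at least 3 UMIs of the cell cycle genes Top2a, Mki67, Cenpf, Birc5 and Ube2c in sum are the members. There were 303 members among 8765 barcodes, 177 of the 4779 barcodes of the knockout library and 126 of the 3986 barcodes of the control library.

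The series profiled pancreas of C57BL/6 mice at embryonic day 18.5, with 1 Dpy30∆P pancreas (knockout) and 1 control pancreas, each dissociated with trypsin for 20 min and run as 1 droplet library. Dpy30 is a subunit of the TrxG complexes, which methylate histone H3 at active genes. The labels do not say what drives the deletion or whether it reaches mesenchymal cells. With 1 library per group no difference between knockout and control has a replicate check, and none was tested. All intervals are 95% intervals and cover counting error only. Differences past 1.5-fold are named as sizes in these libraries. The 2 pancreata were of different sex. Xist, which coats the inactive X chromosome, had 4650 UMIs in knockout members and 0 in control members, and the Y-linked Ddx3y had 0 in knockout members and 88 in control members. Sex and genotype therefore cannot be told apart. The control cells were resuspended in 500 uL and the knockout cells in 250 uL, with 17.4 uL of each loaded. This difference in handling cannot be told apart from genotype either. The libraries shared 27 barcode sequences, of which 1 marked a knockout member and 1 a control member.

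Fetal pancreatic mesenchyme surrounds the branching epithelium, supplies it with matrix and growth signals, and grows by division of its own cells. A dividing cell first copies its DNA in S phase, using helicases loaded onto licensed origins, polymerases and enzymes that make nucleotides. It then passes G2 and divides in mitosis, when condensin packs the chromosomes and the spindle and kinetochores separate them. Genes of mitosis are switched on late in the cycle, in large part through a promoter element called CHR and through CCAAT boxes bound by NF-Y. E2F factors drive genes of DNA synthesis earlier.

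Promoters of 3 cycle genes are shown because such genes define these cells and are read together in them. They give the 250 bases before the RefSeq start in the build GRCm38.p6, 5' to 3', and were picked after their letters were seen. Capitals mark 3 kinds of match, on either strand. One CHR form is TTTGAA, and a variant that was also searched reads TTCGAA. The second kind is the box CCAAT. The third is an E2F site, searched as TTTGGCGC, TTTCCCGC, TTTGCCGC and TTTCGCGC. No motif holds another, though neighbours can share end bases. Top2a encodes the topoisomerase that untangles sister DNA, Ube2c the ubiquitin-conjugating enzyme of the anaphase-promoting complex, and Cdk1 the kinase that starts mitosis.
Top2a, chr11:99024190-99024439, minus strand: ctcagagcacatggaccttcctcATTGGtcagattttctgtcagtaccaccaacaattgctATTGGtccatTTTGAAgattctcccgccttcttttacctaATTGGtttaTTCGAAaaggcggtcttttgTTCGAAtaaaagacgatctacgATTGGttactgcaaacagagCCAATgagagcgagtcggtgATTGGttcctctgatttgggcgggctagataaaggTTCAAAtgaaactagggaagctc
Ube2c, chr2:164769679-164769928, plus strand: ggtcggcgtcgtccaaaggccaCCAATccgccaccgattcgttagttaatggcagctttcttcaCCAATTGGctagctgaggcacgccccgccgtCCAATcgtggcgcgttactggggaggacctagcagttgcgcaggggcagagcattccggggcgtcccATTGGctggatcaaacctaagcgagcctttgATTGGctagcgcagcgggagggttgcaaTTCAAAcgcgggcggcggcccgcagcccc
Cdk1, chr10:69352913-69353162, minus strand: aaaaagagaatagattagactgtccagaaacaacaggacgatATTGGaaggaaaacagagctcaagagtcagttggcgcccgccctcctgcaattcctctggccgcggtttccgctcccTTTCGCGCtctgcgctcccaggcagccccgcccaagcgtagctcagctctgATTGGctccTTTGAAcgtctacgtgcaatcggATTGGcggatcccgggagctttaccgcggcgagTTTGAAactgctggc
In these windows Top2a had 4 CHR and 6 CCAAT matches, Ube2c had 1 and 6, and Cdk1 had 2 and 3 with 1 E2F match. The CHR match nearest the start lay 23 bases before it in Top2a, 29 in Ube2c and 15 in Cdk1.

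The same letters were counted over gene lists, with a gene counted once if any of its RefSeq starts held them. Of 101 genes of the mitotic lists, gate genes included, 87 had a promoter in the table. CHR letters were in 39.1% of these, against 19.6% of all 27025 genes with a promoter. CCAAT was in 65.5% of the mitotic genes and 37.5% of all, and both kinds were in 29.9% and 7.93%. E2F letters were in 6.90% of the mitotic genes and 2.16% of all. A match is a description of letters and not a bound site. Of 65 genes of the S-phase lists 50 had a promoter, which is 76.9% and under the 80% required, so shares for them are void.

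The label was checked against marker genes. Col1a1, Col3a1 and Top2a were used by the rule, and Penk and Nrk were not. Penk, which encodes proenkephalin, stood at 394 CPM (counts of a gene summed over the cells and scaled to a common total) in knockout members and 393 CPM in control members. Nrk, a kinase, stood at 500 CPM in knockout and 518 CPM in control members. A UMI of Penk was found in 79.7% of knockout and 74.6% of control members, against 4.80% and 2.01% of epithelial-gated cells of the same libraries, which should lack it. For Nrk the shares were 88.1% and 86.5% of members, against 2.36% and 1.42% of epithelial-gated cells. Those epithelial-gated cells were deeper, with medians of 11070 and 9844 UMIs, against 7680 in knockout and 7645 in control members. Dcn, a collagen-binding proteoglycan, was found in 97.2% of knockout and 96.0% of control members, and Pdgfra, a receptor of mesenchyme, in 44.6% and 52.4%. Top2a itself was found in 93.8% and 91.3% of members. Mesenchymal-gated cells with no cycle UMI held Penk at 343 CPM in the knockout and 323 CPM in the control library. They held Nrk at 534 CPM and 567 CPM. Both markers that the rule did not use thus met the mesenchymal part of the label. They do not bear on its proliferating part, which rests on the genes of the rule.

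Some members also carried epithelial RNA. Over 1 UMI of Epcam, Cdh1, Krt8 and Krt18 in sum was found in 15 of 177 knockout members (8.47%) and 7 of 126 control members (5.56%), against 2.41% and 1.86% of mesenchymal-gated cells with no cycle UMI. Of the 15 knockout cells, 12 were deeper than every other knockout member, and the deepest held 57198 UMIs. Of the 7 control cells, 2 were deeper than every other control member. The 15 cells held 20.7% of the UMIs of knockout members and 84.0% of their digestive enzyme and hormone UMIs, and the 7 cells held 9.92% and 54.2% in the control library. All 10 acinar markers were found in knockout members, and their sum was 4099 CPM there against 528 CPM in control members, or 896 CPM and 306 CPM without these cells. The 10 endocrine markers summed to 282 CPM in knockout and 781 CPM in control members, or 117 CPM and 560 CPM without them. Scrublet, a doublet caller, marked 5 of the 15 and 2 of the 7. Haemoglobin genes took 12236 CPM in knockout and 6678 CPM in control members, where 4 and 2 cells held over 1% haemoglobin UMIs and the median member held 0.0762% and 0.0499%. Markers of other cell types were low but not all absent. The rule itself capped some genes of the pericyte, mesothelial, endothelial and myeloid lists. The sums of these lists are thus partly set by the rule and only describe the members. The 10 pericyte and smooth muscle markers summed to 193 CPM in knockout and 263 CPM in control members, the 10 mesothelial markers to 110 CPM and 146 CPM, and the 10 endothelial markers to 46.5 CPM and 69.1 CPM. The 10 myeloid markers summed to 20.0 CPM and 22.4 CPM, with 5 of them found in knockout and 8 in control members. The 10 neural and glial markers summed to 89.2 CPM and 46.7 CPM, of which Stmn2 made up 83.4 CPM and 39.9 CPM. Of the lymphoid markers 1 was found, Ebf1, which mesenchyme also expresses, at 423 CPM and 549 CPM. The defining markers Ptprc and Csf1r of myeloid cells, Sox10 of glia and Cd3e of T cells had 0 UMIs in members of both libraries. The part of these cell types in the results was not tested. Where knockout over control values are given below without the cells that carry epithelial RNA, this is said, and what those cells are was not tested.

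Members were a similar part of the mesenchyme in both libraries within counting error. They were 177 of 1004 mesenchymal-gated cells in the knockout library (17.6%, 15.3 to 20.1) and 126 of 755 in the control library (16.7%, 14.1 to 19.5; Clopper-Pearson intervals). The ratio of the shares was 1.06 (0.858 to 1.30, Katz interval), which leaves room for a lower or a higher share in the knockout. With every cell thinned to 3000 UMIs, which 975 knockout and 725 control cells reached, the shares were 13.9% and 12.8%, a ratio of 1.09 (0.851 to 1.39). Counting thinned cells with at least 1 cycle UMI gave 24.6% in the knockout and 23.2% in the control library.

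Other gated classes were set beside them by the same cycle genes. Epithelial-gated cells reached 3 cycle UMIs in 24.2% of knockout and 21.7% of control cells, and in 11.7% and 13.1% after thinning. Their full-depth shares were thus above those of the mesenchyme, while after thinning the knockout share was below it. Endothelial-gated cells reached it in 31.0% and 33.5%, and in 23.1% and 21.8% after thinning. Mesothelial-gated cells stood at 21.7% and 21.0%, and at 14.6% and 14.3% after thinning. Pericyte-gated cells stood at 26.8% and 25.2%, and at 18.8% and 23.6% after thinning, and myeloid-gated cells at 18.3% and 14.6%, and at 14.5% and 9.52%.

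The threshold divided a range. No cycle UMI was found in 705 knockout and 539 control mesenchymal-gated cells, called non-proliferating from here on, and 1 or 2 in 122 and 90. Just outside the rule, at 2 UMIs, lay 20 knockout and 16 control cells, and just inside, at 3, lay 13 and 9. Genes of the S-phase lists took 4633 CPM in the cells at 2 UMIs and 5196 CPM in those at 3 in the knockout library. In the control library they took 3672 CPM at 2 UMIs and 6058 CPM at 3. Non-proliferating cells had 1660 CPM in the knockout and 1634 CPM in the control library, so cells just outside the rule carried S-phase RNA above theirs. Members held a median of 20 cycle UMIs in the knockout library (range 3 to 80) and 14 in the control library (3 to 72). Collagen sums had a median of 64 UMIs in members of both.

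**Figure D1:**
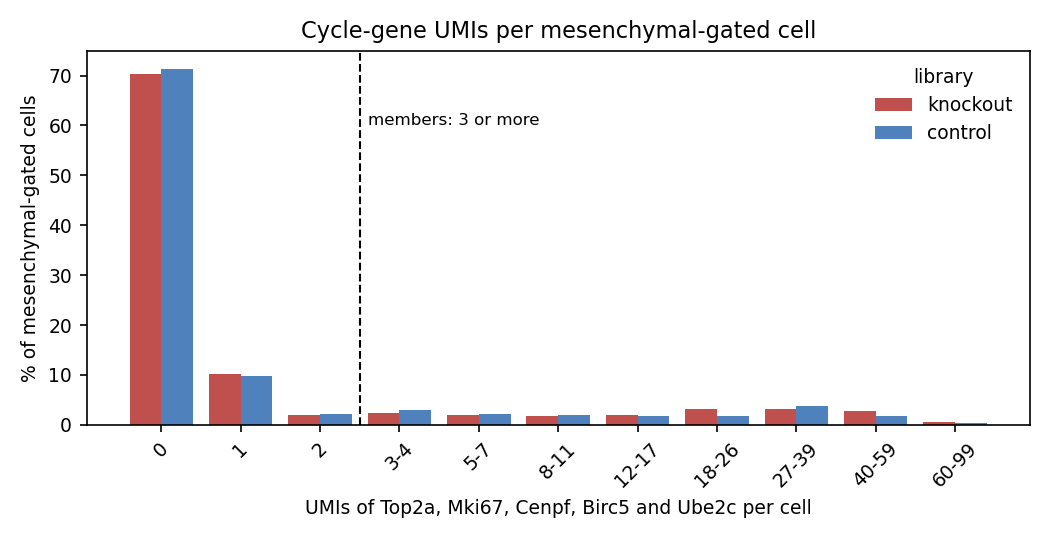
Bars give the percentage of mesenchymal-gated cells (y axis) in each bin of UMIs summed over the 5 cycle genes (x axis, bins of unequal width), for the knockout library (red, 1004 cells) and the control library (blue, 755 cells). Members lie right of the dashed line and spread thinly up to 80 UMIs in the knockout and 72 in the control library.

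Members were divided into S-led and G2/M-led cells. Each cell's UMIs of the S-phase lists (licensing and DNA synthesis) and of the G2/M lists (condensation, spindle and centromere) were taken as shares of each list's total over the members of both libraries, without the 5 gate genes, and the larger share named the cell. S-led cells were 89 of 177 knockout members (50.3%, 42.7 to 57.9) and 62 of 126 control members (49.2%, 40.2 to 58.3), a ratio of 1.02 (0.812 to 1.29). Being set to these totals, the split falls near even by its making, and only the comparison of libraries is read. An index from 0 (G2/M) to 1 (S) lay between 0.4 and 0.6 in 31 knockout and 33 control members, so many cells are near the division.

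S-led and G2/M-led members differed in how many cycle UMIs they held. S-led members had medians of 12 in the knockout and 8.5 in the control library, against 32 and 31.5 in G2/M-led members. The 5 cycle genes are known to peak late in the cycle. Among cells with under 3 cycle UMIs, 0 in the knockout and 1 in the control library held as many S-list UMIs as the median S-led member, which was 70 in both. Non-proliferating cells held a median of 7 in both. Median collagen sums were 80 UMIs in S-led and 53.5 in G2/M-led knockout members, and 68 and 56.5 in control members.

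**Figure D2:**
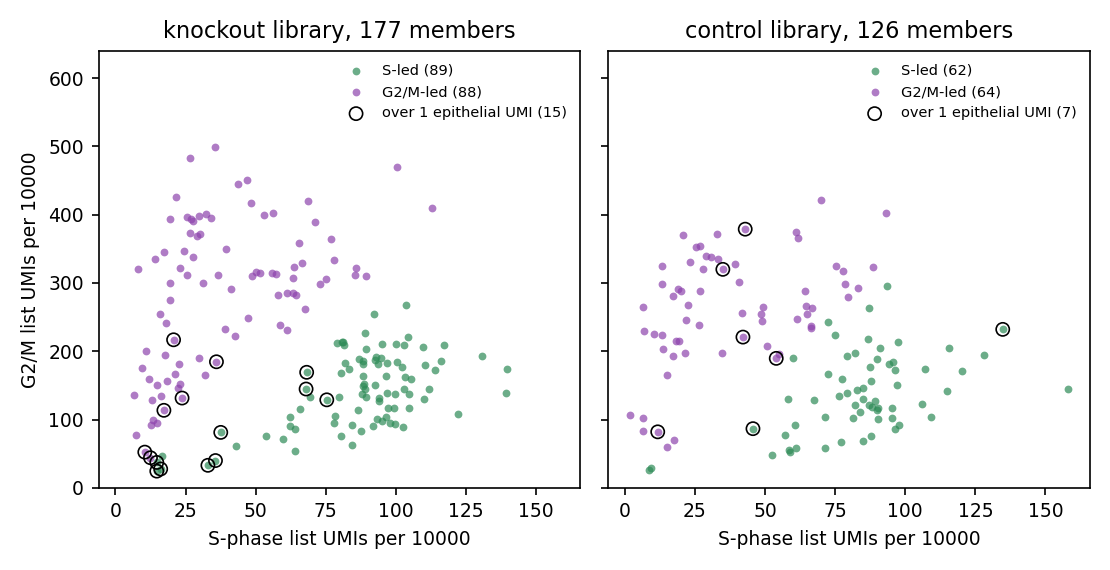
Each point is a member, placed by its UMIs of the S-phase lists (x axis) and of the G2/M lists (y axis), both per 10000 UMIs of the cell, in the knockout library (left) and the control library (right). Green points are S-led (89 and 62), purple points are G2/M-led (88 and 64), and black rings mark the 15 and 7 cells with over 1 epithelial UMI, several of which sit near the lower left corner in the knockout library.

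Cyclin genes, which are in neither phase list, differed between the phases in both libraries (those named were chosen after their values were seen). Ccne2, an E cyclin of S-phase entry, stood at 176 CPM in S-led and 19.7 CPM in G2/M-led knockout members, and at 211 CPM and 30.5 CPM in control members. Ccne1 was 7.88 times higher in S-led members of the knockout library and 8.36 times higher in the control library. Ccnd2, a D cyclin of G1, was 2.01 and 2.28 times higher in S-led members. Ccnb2, a B cyclin of mitosis, stood at 54.8 CPM in S-led and 451 CPM in G2/M-led knockout members, and at 53.7 CPM and 492 CPM in control members. Cdc25b, a phosphatase that frees Cdk1 for mitosis, stood at 3.82 CPM in S-led and 81.3 CPM in G2/M-led knockout members, and at 1.99 CPM and 66.7 CPM in control members. E cyclins were thus on the S side and B cyclins on the G2/M side. Of the gate genes, Top2a had S-led over G2/M-led ratios of 0.850 and 0.768, and Cenpf, a kinetochore protein, of 0.143 and 0.142. Cdkn1c, an imprinted inhibitor of cyclin kinases, was nearly level at 0.881 and 0.878.

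Members were next set against non-proliferating mesenchymal cells within each library. The 5 cycle genes made this split, so what follows describes the members and supports nothing further. With the gate genes left out, 333 of 4463 genes with at least 100 UMIs per library (7.46%) were past 1.5-fold higher in members of both libraries, and 117 (2.62%) past 1.5-fold lower. Of the 333 genes, 106 are in the cycle lists used here.

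The genes furthest above non-proliferating cells were mostly mitotic. Prc1, which bundles microtubules of the central spindle, had 322 CPM in members and 1.79 CPM in non-proliferating cells of the knockout library, and 330 CPM and 1.34 CPM in the control library. Nusap1, another spindle protein, had 355 CPM and 2.30 CPM in the knockout library, and 282 CPM and 1.34 CPM in the control library. Cenpa, the centromeric histone H3, was 78.5-fold (49.8 to 131) higher in the knockout and 72.3-fold (45.2 to 123) higher in the control library. These genes were close to silent in cells with no cycle UMI, which the rule chose for that. Some had no UMI in non-proliferating cells, and their folds are lower bounds against a floor of 3 UMIs over the group. Mxd3, of the MYC network, was at least 217-fold higher in the knockout and at least 167-fold higher in the control library. Hmmr, a spindle assembly factor, was at least 161-fold and at least 137-fold higher, and Esco2, which acetylates cohesin in S phase, at least 148-fold and at least 103-fold.

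The other genes named were Ckap2l, Cdca8, Ccna2, Aurkb, Cdc20, Spc25, Cdca3, Racgap1 and Fam64a. Spc25, of the kinetochore, was 62.2-fold higher in the knockout and 80.5-fold higher in the control library, and Cdca3 64.7-fold and 119-fold. Cdca8, of the chromosomal passenger complex, was 79.9-fold and 119-fold higher. Several had only 1 to 3 UMIs in non-proliferating control cells, which leaves wide intervals. Ccna2, cyclin A2, was 84.5-fold (42.3 to 198) higher in the knockout and 274-fold (74.7 to 2277) higher in the control library. Cdc20, an activator of the anaphase-promoting complex, was 71.1-fold (39.2 to 144) and 145-fold (48.5 to 709) higher.

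The cycle lists stood apart from each other in size. All 34 spindle genes with at least 20 UMIs per library were past 1.5-fold higher in both, with median log2 ratios of 5.68 in the knockout and 5.46 in the control library. Of 35 centromere and checkpoint genes 34 were, with medians of 5.64 and 5.68, and all 26 condensation genes were, with medians of 2.72 and 2.78. DNA synthesis genes had medians of 1.53 and 1.84 (41 of 44 past 1.5-fold higher), and licensing genes of 1.02 and 1.34 (15 of 17). Over all 9545 genes at this level (at least 20 UMIs per library) 9.82% were past 1.5-fold higher in both libraries and 4.05% past 1.5-fold lower.

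S-phase genes ranged widely. Slbp, which binds histone mRNA, had 278 CPM in members and 115 CPM in non-proliferating cells of the knockout library, and 310 CPM and 117 CPM in the control library. Tk1, thymidine kinase, was 16.9-fold (12.2 to 23.9) higher in members of the knockout library and 18.7-fold (12.8 to 28.0) higher in the control library, where it had 200 CPM in members and 10.7 CPM in non-proliferating cells. Slbp was thus well expressed in cells with no cycle UMI and Tk1 was low there. Gmnn, an inhibitor of licensing, was 5.82-fold and 7.25-fold higher, and Orc6, of the origin recognition complex, 1.89-fold and 2.17-fold.

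Chromatin proteins and tubulins were among the most abundant cycle transcripts. Hmgb2, a DNA-bending protein, had 1745 CPM in knockout and 1694 CPM in control members, 6.57-fold and 6.67-fold above non-proliferating cells. H2afz, a histone variant, had 2286 CPM and 2368 CPM, 8.70-fold and 7.42-fold above them. The replacement histones H3f3a and H3f3b stayed inside 1.5-fold, at 1.34-fold and 1.35-fold for H3f3a and 1.23-fold and 1.18-fold for H3f3b. Clustered histone genes such as Hist1h1b, a linker histone at 38.9-fold and 141-fold, have near copies, so the assignment of their tags is uncertain. Tubb5, a beta tubulin, was 2.34-fold and 3.14-fold higher, and Stmn1, which destabilises microtubules, 5.89-fold and 7.86-fold.

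Histone-modifying complexes were measured because the series concerns a TrxG subunit. Dpy30 had 116 CPM in members and 69.4 CPM in non-proliferating cells of the knockout library, and 99.3 CPM and 58.5 CPM in the control library, ratios of 1.68 (1.38 to 2.03) and 1.70 (1.32 to 2.18). Between libraries the ratio in members was 1.17 (0.914 to 1.51), and 0.984 without the cells that carry epithelial RNA. Tags of a 3' library need not fall in the deleted part, so this does not check the deletion. Of 18 COMPASS and trithorax genes 3 were past 1.5-fold higher in members of both libraries, which is near the 9.82% of all genes, with medians of 0.29 and 0.20 on the log2 scale. Psip1, a chromatin-binding partner of MLL complexes, was 2.41-fold and 2.75-fold higher. Of 19 Polycomb genes 7 were, with medians of 0.52 and 0.49, among them Ezh2, the histone H3 lysine methyltransferase, at 3.20-fold and 3.91-fold. Kdm5b, which removes the mark that TrxG complexes write, was lower, with 33.0 CPM in members and 72.2 CPM in non-proliferating cells of the knockout library, and 28.2 CPM and 64.8 CPM in the control library.

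Matrix lists had medians slightly below 0 in members over non-proliferating cells. Col1a1 was used by the gate, whose fixed collagen floor bears differently on cells of different depth (medians of 7680 and 7645 UMIs in members, 5378 and 5398 in non-proliferating cells), so its ratios of 0.765 in the knockout and 0.806 in the control library are given as a description only. They were 0.845 and 0.836 without the cells that carry epithelial RNA. The 17 collagens had median log2 ratios of -0.28 in the knockout and -0.13 in the control library, and 0 were past 1.5-fold in both. Of 33 matrix and proteoglycan genes 4 were past 1.5-fold lower in both and 0 higher, with medians of -0.28 and -0.18. Over all genes with at least 20 UMIs per library 4.05% were lower in both and 9.82% higher. Ogn, a small leucine-rich proteoglycan, had ratios of 0.448 and 0.411, and Mfap4, a microfibril protein, of 0.567 and 0.596. Sparc, a collagen chaperone outside the cell, had ratios of 0.681 and 0.806.

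Genes furthest below non-proliferating cells had varied roles. Ccnd2 had 248 CPM in members and 542 CPM in non-proliferating cells of the knockout library, and 288 CPM and 657 CPM in the control library. Aldoa, a glycolytic aldolase, had ratios of 0.478 and 0.380. Zfp36, which destabilises short-lived mRNAs, had 0.569 and 0.585, and G0s2, an inhibitor of lipolysis, 0.552 and 0.553. Ddx54, Aprt, Prmt2, Dtx3, Map1lc3a, Gadd45g, Eif3e and Cdc42ep5 were the others named, with ratios from 0.407 to 0.633 in the knockout and from 0.319 to 0.592 in the control library. Penk and Nrk stayed inside 1.5-fold, with ratios of 1.15 (1.04 to 1.26) and 1.22 (1.08 to 1.37) for Penk and 0.937 (0.861 to 1.02) and 0.914 (0.827 to 1.01) for Nrk.

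**Figure D3:**
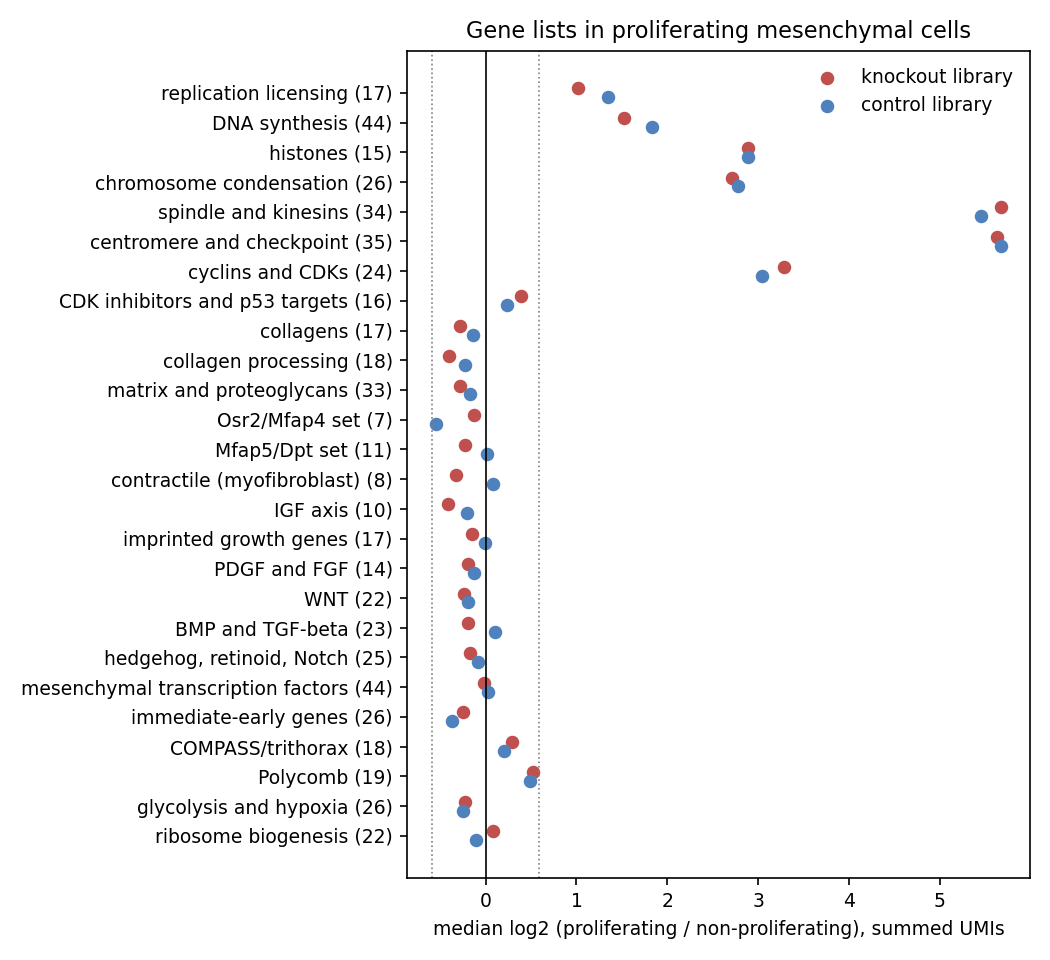
Each row is a gene list, with the number of its genes that had at least 20 UMIs per library in brackets. Points give the median log2 ratio of members over non-proliferating cells (x axis) in the knockout library (red) and the control library (blue), and dotted lines mark 1.5-fold. Spindle and centromere lists lie between 5.46 and 5.68, and matrix and signalling lists lie inside the dotted lines.

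Mesenchymal-gated cells ranged from those led by an Osr2 and Mfap4 set to those led by a Mfap5 and Dpt set. Members came from both. The sets have 8 and 11 genes, and the larger UMI sum gave the lead. Cells with more UMIs of the Osr2 and Mfap4 set were 79 of 177 knockout members (44.6%, 37.2 to 52.3) and 48 of 126 control members (38.1%, 29.6 to 47.2). Among non-proliferating cells they were 32.8% (29.3 to 36.4) in the knockout and 36.2% (32.1 to 40.4) in the control library. Seen from the subsets, members were 22.8% of Osr2 and Mfap4-led cells and 15.2% of Mfap5 and Dpt-led cells in the knockout library, and 17.1% and 17.3% in the control library. After thinning these shares were 20.9% and 15.9% in the knockout and 18.5% and 15.5% in the control library. The intervals of the subset shares in members overlap between libraries. The lead divides a range, with 27 knockout and 14 control members within 1 UMI of it. Mfap4 and Osr2 themselves were lower in members than in non-proliferating cells. Osr2 had 242 CPM in members and 340 CPM in non-proliferating cells of the knockout library. In the control library it had 230 CPM and 340 CPM. The lead thus describes the sum of a set and not the level of these genes.

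Knockout over control, members were compared gene by gene. Of 3371 genes with at least 100 UMIs over both libraries, 102 (3.03%) were past 1.5-fold higher in knockout members and 135 (4%) past 1.5-fold lower, with a median log2 ratio of -0.02. Without the cells that carry epithelial RNA, 75 of 2872 genes were higher and 82 lower. Of the 102 genes 69 were still past 1.5-fold higher without those cells, and of the 135 genes 91 were still past 1.5-fold lower. In non-proliferating cells 38 and 22 of them were past 1.5-fold the same way. Of all 6201 genes with at least 100 UMIs in non-proliferating cells, 139 were past 1.5-fold higher and 192 lower there.

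Medians of the cycle lists lay near a ratio of 1 between libraries in all members, and the mitotic ones were somewhat higher in knockout members without the cells that carry epithelial RNA. Spindle, centromere and condensation lists had median log2 ratios of -0.03, 0.06 and 0.02, and of 0.20, 0.31 and 0.22 without the cells that carry epithelial RNA. Licensing and DNA synthesis lists had medians of -0.08 and -0.11, and of 0.01 and 0.00 without those cells. Past 1.5-fold, 0 genes of these lists were higher, and lower ones were 2 of 18 for licensing, 2 of 45 for DNA synthesis and 1 of 34 for the spindle. Without those cells 4 of 26 condensation genes, 4 of 35 centromere genes and 1 gene each of the spindle, licensing and DNA synthesis lists were past 1.5-fold higher, and 1 licensing gene was lower. Over all 8687 genes with at least 20 UMIs 9.26% were higher and 11.6% lower. Of the 7962 genes with at least 20 UMIs without those cells, 692 were higher and 805 lower. Mki67, a coat protein of mitotic chromosomes, had 308 CPM in knockout and 253 CPM in control members, a ratio of 1.22 (1.04 to 1.42), and 1.43 without those cells. Top2a had 936 CPM in knockout and 1000 CPM in control members, a ratio of 0.937 (0.864 to 1.02), and 1.11 without them. Smc2, of condensin, had 355 CPM and 260 CPM, a ratio of 1.37 (1.18 to 1.59), and 1.52 without them. Cdkn1c had 1733 CPM and 2486 CPM, a ratio of 0.697 (0.660 to 0.736), inside the 1.5-fold limit.

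Of the 12 genes named as higher in knockout members, Crabp1 kept the largest ratio without the cells that carry epithelial RNA. It encodes a cytosolic protein that binds retinoic acid and had 125 CPM in knockout and 33.1 CPM in control members, a ratio of 3.79 (2.62 to 5.63). A UMI was in 67 knockout and 18 control members. The ratio was 4.06 without those cells and 2.83 (2.29 to 3.52) in non-proliferating cells, so it was not limited to members. Cthrc1, a secreted glycoprotein, had 266 CPM and 163 CPM, a ratio of 1.64 (1.37 to 1.97), and 1.79 (1.62 to 1.98) in non-proliferating cells. In G2/M-led members alone its log2 ratio was 0.35, inside the limit. St6galnac3, a sialyltransferase, had 54.9 CPM and 25.3 CPM, a ratio of 2.17 (1.38 to 3.51), and 1.17 (0.936 to 1.48) in non-proliferating cells. Klf6, a zinc finger factor, had 470 CPM and 315 CPM, a ratio of 1.49 (1.31 to 1.71), just inside the limit, and 1.66 without the cells that carry epithelial RNA. Stmn2, known from neurons, had a ratio of 2.09 (1.46 to 3.05), but 1 cell held 63.4% of its control UMIs and 21 knockout and 8 control members had any. In S-led members alone its log2 ratio was 0.20.

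Most of the other higher genes were concentrated in the cells that carry epithelial RNA. Gamt, an enzyme of creatine synthesis, had 145 CPM in knockout and 37.0 CPM in control members, a ratio of 3.93 (2.78 to 5.70). The 15 cells held 82.2% of its knockout UMIs, and without those cells the ratio was 0.973 (0.594 to 1.61). Gcat, of threonine breakdown, had a ratio of 3.03 in all members and 1.28 without them. Phgdh, the first enzyme of serine synthesis, had 2.14 and 1.10, and Nupr1, a stress-response protein, 1.90 and 0.904. Reep5 had 1.64 and 1.03, Rnase4 1.67 and 1.09, and Cisd1 1.95 and 1.57. For 6 of these 7 genes the ratio came inside 1.5-fold.

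Of the 12 genes named as lower in knockout members, all but Actb stayed past 1.5-fold without those cells. Thy1, a surface glycoprotein of fibroblasts, had 25.9 CPM in knockout and 100 CPM in control members, a ratio of 0.258 (0.174 to 0.375). It was found in 18.6% of knockout and 36.5% of control members, and its ratio was 0.287 without the cells that carry epithelial RNA and 0.456 in non-proliferating cells. Lpl, lipoprotein lipase, had 67.9 CPM and 200 CPM, a ratio of 0.340 (0.266 to 0.432), and 0.366 without those cells and 0.441 in non-proliferating cells. Spry2 and Spry1 damp signals of receptor tyrosine kinases. Spry2 had 47.8 CPM in knockout and 123 CPM in control members, and Spry1 36.2 CPM and 77.9 CPM, ratios of 0.390 and 0.465, and of 0.461 and 0.496 without those cells. Pdpn, podoplanin, had 33.6 CPM and 76.9 CPM, a ratio of 0.437 (0.302 to 0.628), and a log2 ratio of -0.54 in thinned cells, inside the limit. Capn6, an X-linked gene of the calpain family, had 86.0 CPM and 197 CPM, a ratio of 0.437 (0.349 to 0.547). Of 116 X-linked genes, without Xist and Tsix, 4 were past 1.5-fold higher and 5 past 1.5-fold lower. This is near the 3.03% higher and 4% lower of all 3371 genes with at least 100 UMIs.

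A few of the lower genes were inside 1.5-fold in non-proliferating cells. Pros1, which encodes protein S, had a ratio of 0.445 (0.321 to 0.612) in members and 0.917 (0.763 to 1.10) in non-proliferating cells. Slc39a1, a zinc importer, had 0.481 (0.342 to 0.673) and 0.865 (0.736 to 1.02). Actb, cytoskeletal actin, had 2560 CPM in knockout and 3961 CPM in control members, a ratio of 0.646 (0.619 to 0.676), and 0.702 without the cells that carry epithelial RNA and 0.805 in non-proliferating cells. The differences between members and non-proliferating cells were not tested.

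Insig1, Fdps and Hmgcs1, of sterol synthesis and its control, were also among the 12 lower genes, with ratios of 0.310, 0.357 and 0.422. In G2/M-led members alone Fdps had a log2 ratio of -0.23, inside the limit. Of 20 genes of lipid synthesis, a list made after these values were seen, 19 had at least 20 UMIs, and of these 12 were past 1.5-fold lower and 0 higher in knockout members, with a median log2 ratio of -1.10, where 11.6% of all genes were lower. The list holds the 3 genes that prompted it. Without the cells that carry epithelial RNA 13 were lower with a median of -1.06, where 805 of all 7962 genes were lower. In non-proliferating cells 19 were lower with a median of -1.51. There 192 of 6201 genes with at least 100 UMIs were lower, a higher minimum than the list had.

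**Figure D4:**
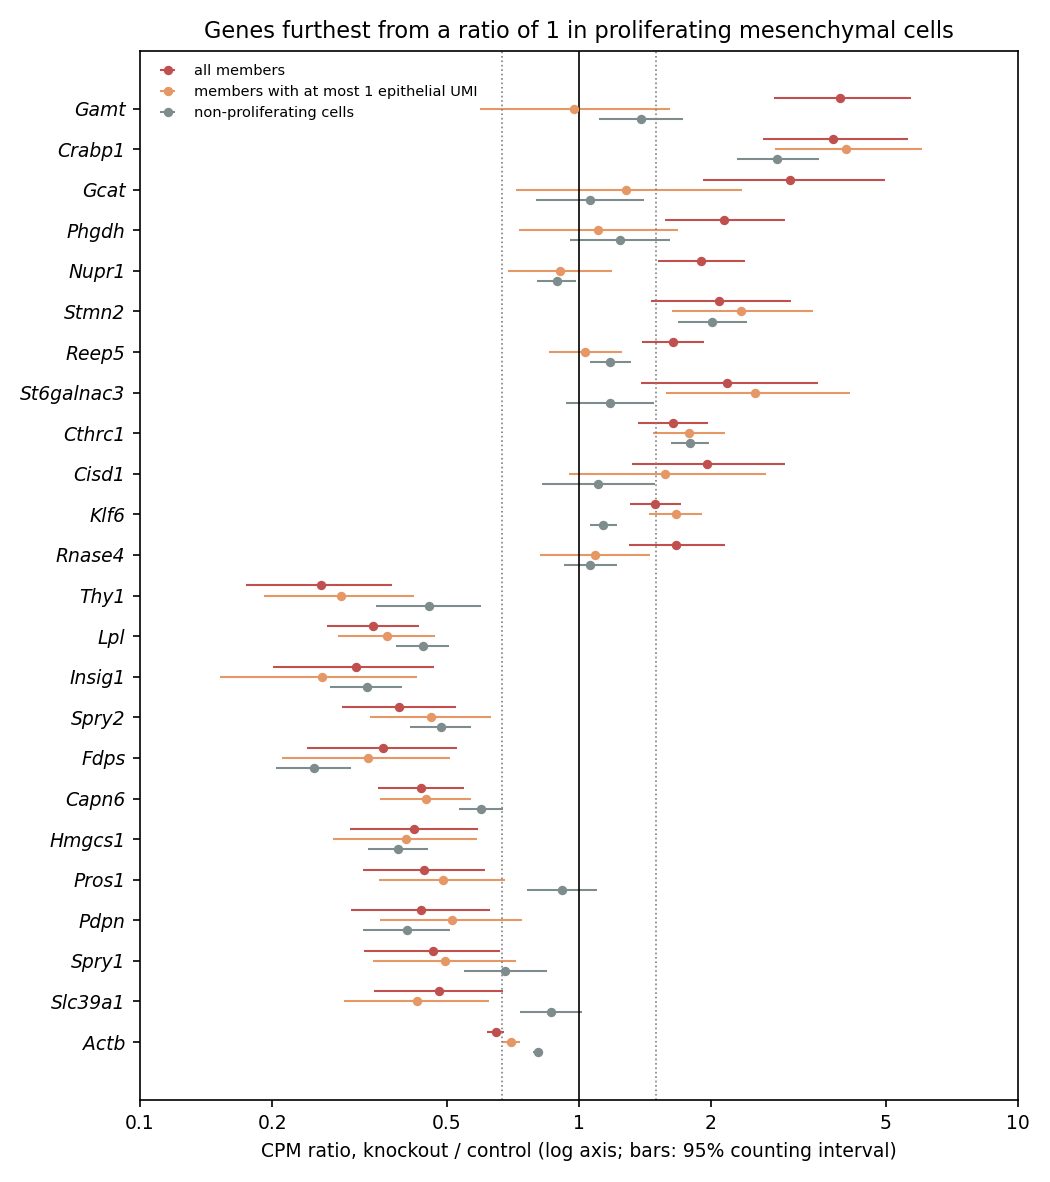
Rows are the 12 genes named as higher and the 12 named as lower in knockout members. Points are ratios of CPM, knockout over control (x axis, log scale), with 95% counting intervals, in all members (red), in members with at most 1 epithelial UMI (orange) and in non-proliferating cells (grey), and dotted lines mark 1.5-fold. Orange points of Gamt, Gcat, Phgdh, Nupr1, Reep5 and Rnase4 lie between 0.904 and 1.28, and all points of the 12 lower genes lie below 1.

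Matrix and growth factor lists had medians below 0 in knockout members. Of 33 matrix and proteoglycan genes 10 were past 1.5-fold lower and 0 higher, with a median log2 ratio of -0.37, where 11.6% of all genes at this level were lower and 9.26% higher, with a median of -0.03. Without the cells that carry epithelial RNA 8 were lower, beside 805 of 7962 genes, and the median was -0.26. In non-proliferating cells the median was -0.19. Mgp, an inhibitor of matrix calcification, had 39.4 CPM in knockout and 103 CPM in control members, a ratio of 0.382 (0.274 to 0.528), and 0.536 without those cells. Igfbp7, a secreted binding protein, had 34.9 CPM and 69.1 CPM, a ratio of 0.505 (0.348 to 0.730). The most abundant member, Dcn, was near 1 at 0.935. Of 17 collagens 4 were lower, with a median of -0.32, and of -0.20 without those cells. Col15a1, of basement membrane zones, had a ratio of 0.546 and Col6a2 of 0.673, and Col6a1, of microfibrils, of 0.872.

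Of 14 genes of PDGF and FGF signalling 6 were past 1.5-fold lower and 1 higher, against 11.6% and 9.26% of all genes, with a median of -0.53. Without the cells that carry epithelial RNA 5 of 12 were lower and 1 higher, with a median of -0.47. Over all 7962 genes 805 were lower and 692 higher without those cells. The receptors Pdgfra and Fgfr1 were inside the limit, at 0.840 and 0.696. All 11 genes of the Mfap5 and Dpt set had ratios below 1 and 3 were past 1.5-fold lower, with a median of -0.48. Without the cells that carry epithelial RNA 2 were lower and the median was -0.29. Dpt, dermatopontin of the matrix, had 105 CPM in knockout and 189 CPM in control members, a ratio of 0.558 (0.450 to 0.691). The 7 genes of the Osr2 and Mfap4 set had a median of -0.04, beside the larger share of members led by that set in the knockout library.

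Contractile genes, which mark myofibroblasts, rested on few cells. Of 8 such genes 3 were past 1.5-fold lower in knockout members, beside 11.6% of all genes. Without the cells that carry epithelial RNA 1 was lower, beside 805 of 7962 genes, so this count is near the background. Tagln, transgelin, had 12.9 CPM in knockout and 56.5 CPM in control members, but 5 knockout and 11 control members had any UMI and 1 cell held 62.1% of the control UMIs. Acta2, smooth muscle actin, had 57.5 CPM and 105 CPM, a ratio of 0.547 (0.409 to 0.731), and 0.763 without those cells.

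Other lists were mixed, and their counts stand beside 9.26% higher and 11.6% lower over all genes. Counts without the cells that carry epithelial RNA stand beside 692 higher and 805 lower of 7962 genes. Of 10 genes of the IGF axis 2 were past 1.5-fold lower and 0 higher. Igfbp3, which binds IGFs, had 101 CPM in knockout and 180 CPM in control members, a ratio of 0.560 (0.449 to 0.697), and Igf1 had 337 CPM and 232 CPM, a ratio of 1.46 (1.25 to 1.70). Of 17 imprinted growth genes 0 were past 1.5-fold, and Meg3, the most abundant, had a ratio of 0.991. Of 21 BMP and TGF-beta genes 1 was higher and 4 lower, and without the cells that carry epithelial RNA 1 of 19 was higher and 2 lower. Id3, a target of BMP signals, had 58.2 CPM in knockout and 130 CPM in control members, a ratio of 0.446 (0.338 to 0.587), and 0.927 (0.801 to 1.07) in non-proliferating cells. Of 26 immediate-early genes, which dissociation can induce, 1 was higher and 1 lower, and without those cells 3 of 24 were higher and 0 lower, with Fos at 1.26 and Egr1 at 0.886 in all members. Of 18 COMPASS and trithorax genes 2 were higher and 2 lower, with Kmt2d, a histone methyltransferase, at 0.485 (0.254 to 0.911). Of 18 Polycomb genes 2 were higher and 3 lower, and without those cells 1 of 15 was higher and 1 lower. Of 21 ribosome biogenesis genes 0 were higher and 1 lower.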

How the data were processed

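The deposited matrices hold raw UMI counts for each gene in each barcode, and their headers name Cell Ranger 3.0.0. Seurat, in versions 2 and 3, is named by the submitters' processing notes, as are GRCm38 and mm10. Libraries held 33048640 UMIs in the knockout and 25398522 in the control. The members and the gene lists were chosen with earlier results of these data known.

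UMIs were summed over cells and divided by the group total to give CPM. Ratios had exact conditional binomial intervals, shares Clopper-Pearson intervals and ratios of shares Katz intervals (95%). Genes entered with at least 100 UMIs, list genes with at least 20, and called means past 1.5-fold. Named genes were the 12 (knockout over control) or 15 (proliferating over non-proliferating) per direction whose interval bound nearest 1 was furthest from it. Left out were haemoglobin, mitochondrial, ribosomal protein, digestive, hormone, sex-specific and unnamed genes, and genes over 5 times higher in another gated class. The gate and marker genes were always given, and of each list the 4 most abundant genes and the 2 furthest from 1. Genes named beyond this rule were chosen after their values were seen. No doublets were removed in the main analysis, and Scrublet (scanpy 1.11.5) was an alternative. It marked 0.890% of kept knockout and 0.987% of kept control barcodes. Scripts used Python 3.11.15 and SciPy 1.17.1 and were tested on simulated counts.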

Additional observations from a re-analysis of the deposited data

How the results depend on the processing

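No paired analysis was possible because each group has 1 library. The ratios of the proliferating, S-led and subset shares stayed inside their intervals under every alternative that was run. Counts of genes moved more, though the number of genes tested also differed between alternatives. Knockout over control, with 102 higher and 135 lower (237 in all), 82 were lower and 157 in all without cells of over 1 epithelial UMI. Thinned to 3000 UMIs there were 37 higher and 27 lower (64). With a minimum of 50 UMIs there were 273 and 370 (643), and of 200 UMIs 44 and 39 (83). S-led members alone gave 69 lower and 138 in all, and G2/M-led members alone 56 higher and 79 lower (135). Thinning together with leaving out the cells that carry epithelial RNA, an alternative chosen after seeing the data, gave 35 and 19 (54). Proliferating over non-proliferating, thinning gave 143 higher and 62 lower (205), against 333 and 117 (450). Thinned cells hold fewer UMIs, so fewer genes reached the minimum. S-led or G2/M-led members alone also hold fewer UMIs than all members. These counts are not shares of the genes tested, so they do not show how far the share of called genes moved. Without the cells that carry epithelial RNA the log2 ratios of Gamt and Nupr1 turned to -0.039 and -0.15. With thinning as well those of Nupr1 and Reep5 turned to -0.24 and -0.18. A minimum of 50 or 200 UMIs does not alter a ratio, so the 30 values under each could not change. Nor could those of single genes when X and Y genes were left out. With these counted, over named genes and lists 1149 values kept their call, 35 fell inside 1.5-fold and 10 passed it. The 4 values of Gamt, Nupr1 and Reep5 given above were called and changed sign. Medians of the licensing, DNA synthesis and spindle lists, which lay near 0, also crossed it, and still counted as kept, under some alternatives. Among these were leaving out the cells that carry epithelial RNA and averaging over cells. With 1 library per group, depth sets the intervals but not the spread between animals.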
